A study of Mus musculus with 4 samples.

Results

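The Notch pathway was followed through 10 of its genes, namely the receptors *Notch1*, *Notch2*, *Notch3* and *Notch4*, the ligands *Jag1*, *Jag2* and *Dll1*, and the target genes *Hes1*, *Hey1* and *Heyl*. They were picked by gene symbol, and all 10 were found among the 23924 genes of the matrix. The cells were tail tip fibroblasts (TTF) of the C57BL/6J-TgBAC8-2087 mouse line, from male littermates that were either Tg2087/+ (TG) or +/+ (WT). TG cells are hemizygous for TgBAC8, a stretch of the X-inactivation center (*Xic*) placed in an autosome, from which *Xist* is transcribed by its own promoter. Cells of both genotypes were immortalized with SV40 large T and were tetraploid, and the age of the mice was not given in the sources used here. There were 2 RNA-seq libraries of WT and 2 of TG cells, and nothing states whether a genotype's 2 libraries are from separate animals, so p-values measure only the spread between these libraries.

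Notch signalling passes between cells in contact. A Jagged or Delta ligand on 1 cell binds a Notch receptor on its neighbour, the receptor is cut by an ADAM protease and then by gamma-secretase, and the freed intracellular part joins the DNA-binding protein RBPJ and a Mastermind co-activator in the nucleus. The HES and HEY genes, which encode repressors of the basic helix-loop-helix class, are its classical targets. In connective tissue the pathway is known for its part in fibroblast activation and in the mural cells of vessels, where NOTCH3, HEYL and JAG1 are prominent.

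The reads behind each FPKM value were worked out from the ratios between libraries, which were those of whole numbers. The library totals lay between 9465712 and 14639946 reads, both in WT. *Xist* was at 0 and 0.108 FPKM in WT and at 2.31 and 2.28 FPKM in TG. Even so, limma did not call it at the threshold of 0.01 (log2 fold change 2.34, adjusted p = 0.0112 from limma). Voom did (log2 fold change 6.55, adjusted p = 2.82e-04 from voom). The 10 fibroblast markers summed to 4910 and 4624 FPKM in WT and to 3944 and 4223 FPKM in TG, and *Lum* was listed at 0 throughout. Of the 8 that were tested, 6 lay lower in both TG libraries and 2 higher, where 20.3% and 30.2% of all tested genes did so. Limma called 0 of the 8. An adjusted p under 0.05 was reached by 2, *Col1a1* and *Pdgfrb*, both lower in TG, where 1.54% of all tested genes were. Voom on the recovered reads called 1, *Pdgfrb*, down-regulated, where it called 1.29% of all tested genes. The 8 endothelial markers summed to between 0.036 and 1.28 FPKM, with *Tie1* and *Emcn* at 0. The 10 smooth muscle and pericyte markers summed to 10054 and 10260 FPKM in WT and to 4739 and 5396 FPKM in TG. Most of these sums came from *Acta2*, *Tagln*, *Cnn1* and *Myl9*, at means of 4414, 3687, 681 and 1209 FPKM in WT. Of the 8 markers that were tested, 8 had a log2 fold change below 0, and 7 lay lower in both TG libraries. *Smtn* overlapped between the genotypes, as did *Myh11* and *Des*, which were too low to be tested. Limma called 2 of the 8 down-regulated, *Cnn1* and *Myl9*, where it called 0.469% of all tested genes. Voom called 4, *Acta2* and *Mcam* besides, where it called 1.29%.

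In WT cells, *Hes1* was the highest of the 10 genes on the FPKM scale, which is per length of gene, with a mean of 50.8 FPKM. It was followed by *Notch2* at 8.51, *Notch1* at 5.76, *Jag1* at 4.19, *Notch3* at 1.8 and *Hey1* at 1 FPKM, and the values of neighbours in this order did not overlap. *Jag2* at 0.129 FPKM, from 5 and 7 reads, was apart from *Hey1* and *Heyl* beside it. It overlapped *Dll1*, which was at 0 and 0.146 FPKM. *Heyl*, *Dll1* and *Notch4* had means of 0.0829, 0.0729 and 0.0423 FPKM, from at most 8 reads in any library, and did not differ beyond their spread. In TG cells *Hes1* and *Notch2* were again first and second, at 33.2 and 7.63 FPKM. *Notch1* and *Jag1*, at 2.29 and 1.88 FPKM, overlapped there, and so did *Hey1* and *Notch3*, at 0.857 and 0.668 FPKM.

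**Figure D1:**
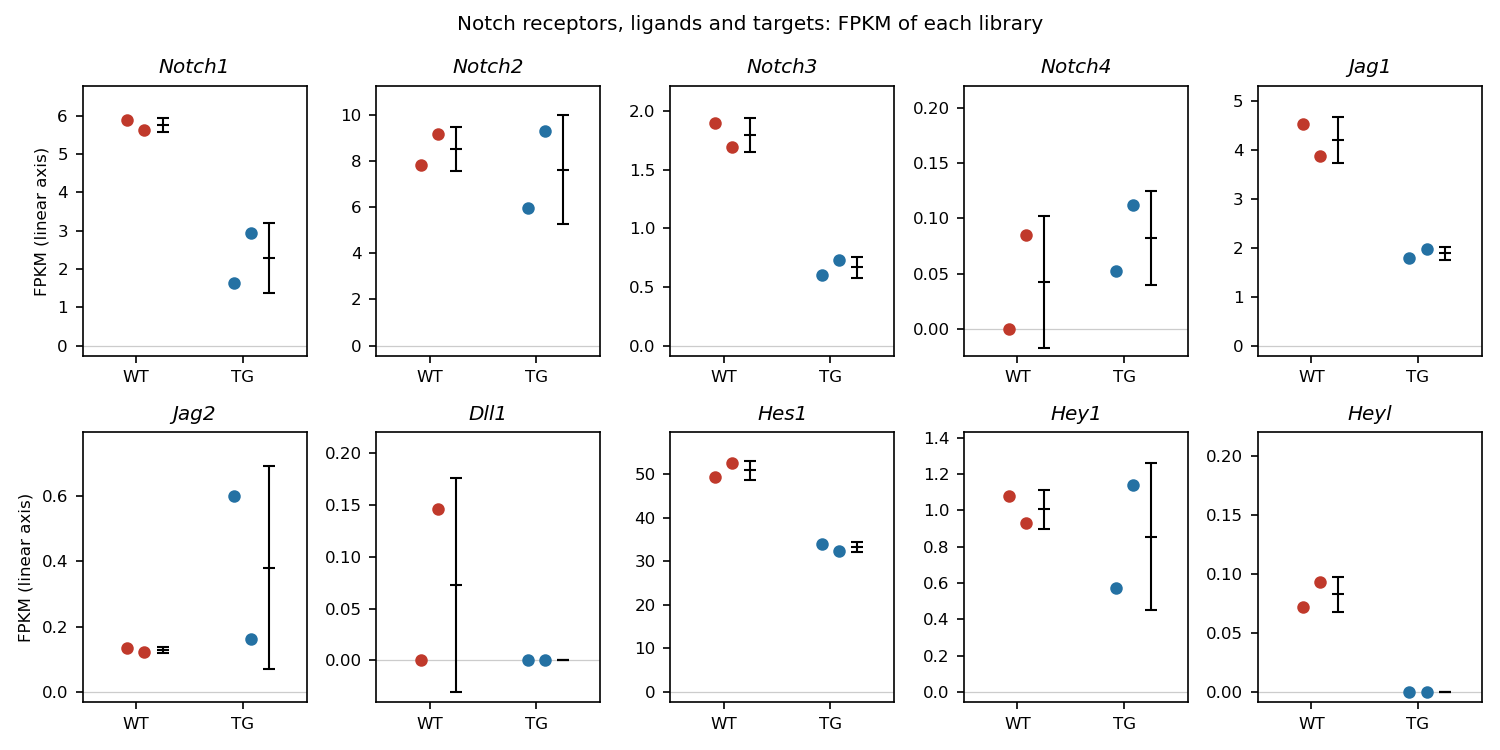
FPKM of each of the 10 genes, on a linear axis of its own for each gene. Red points are the 2 WT libraries and blue points the 2 TG libraries (replicate 1 on the left of each pair), and the bars give the mean ± SD (n = 2). *Notch1*, *Notch3*, *Jag1* and *Hes1* have both blue points below both red points, whereas *Notch2* and *Hey1* overlap.

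The comparison of TG with WT asked which transcripts differ when *Xist* is transcribed from an autosome. Genes were called by limma on log2(FPKM + 0.5) where the adjusted p was under 0.01 and the log2 fold change reached 1 in size. Fold changes on this scale understate those of genes with low values. Of the 10 genes, 6 reached the mean of 0.5 FPKM that the test required. The count of called genes among these 6 was 0, in a test that called 0.469% of 11524 genes down-regulated and 0.607% up-regulated. At an unadjusted p under 0.05 there were 4 with lower values in TG and 0 with higher values, where 6.88% and 12.7% of all tested genes were lower and higher. At an adjusted p under 0.05 limma passed *Notch1*, the only one of the 6, where 1.05% of all tested genes were lower and 1.99% higher with a log2 fold change of 1 or more in size, or 1.54% and 2.59% at any size. On the recovered reads, voom (limma's method for counts) called 1 of the 6, *Notch1*, down-regulated, where it called 1.29% of all tested genes. Its adjusted p was under 0.05 for 4 of the 6, all with lower values in TG, against 4.42% of all tested genes lower and 3.6% higher. In 4 of the 6 both TG libraries lay below both WT libraries, which held for 20.3% of the tested genes, and the median log2 fold change of the 6 was -0.79 against 0.0711 for all tested genes. In bulk RNA, fewer cells of a type and less RNA per cell cannot be told apart.

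Among the receptors, *Notch1*, on Chr 2 of GRCm38 from 26457902 to 26503822, had the log2 fold change of largest size by limma, while *Notch3* had the larger percentage difference. It was at 5.88 and 5.63 FPKM in the WT libraries and at 1.64 and 2.93 FPKM in the TG libraries, from 520, 770, 183 and 303 reads. Both TG libraries lay below both WT libraries, and TG 1 was the lower of the TG pair. The mean was 5.76 ± 0.177 FPKM (SD, n = 2) for WT against 2.29 ± 0.912 FPKM (SD, n = 2) for TG, which is 60.3% less. The log2 fold change was -1.21 ± 0.29 (SE, the standard error, 95% confidence interval -1.86 to -0.55, adjusted p = 0.0483 from limma), so *Notch1* passed an adjusted p of 0.05 but not the threshold of 0.01. With voom on the recovered reads the log2 fold change was -1.47 and the adjusted p 2.65e-04. Over the 13 alternatives the adjusted p ranged from 2.65e-04 to 0.291, and it was under 0.05 in 5 of them. An exon of *0610009E02Rik*, which runs on the opposite strand and had a mean of 0.148 FPKM, overlaps an exon of *Notch1*. Opposite-strand genes that the matrix does not list also overlap exons of *Notch1* (*Gm13568*), *Notch3* (*Gm17276*) and *Dll1* (*A930024N18Rik*). Whether the counting used strand is not stated.

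*Notch3*, the receptor known from mural cells, lies on Chr 17 from 32120820 to 32166896. Its values were 1.9 and 1.69 FPKM in WT against 0.605 and 0.732 FPKM in TG, from 142, 196, 57 and 64 reads. How many of these reads came from the overlapping *Gm17276* cannot be gauged, as the matrix does not list that gene. The libraries of the genotypes did not overlap, and the TG mean was 62.8% below the WT mean. The log2 fold change was -0.98 ± 0.36 (SE, adjusted p = 0.164 from limma) and did not pass the test. With voom it was -1.48, with an adjusted p of 0.0133. The sum of the smooth muscle and pericyte markers, most of it from 4 contractile genes, moved the same way. It was 4739 to 5396 FPKM in TG and 10054 to 10260 FPKM in WT. The summed fibroblast markers were lower too, at 3944 and 4223 FPKM in TG and at 4910 and 4624 FPKM in WT. The part of either group of markers in the result was not tested.

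*Notch2*, on Chr 3 from 98013538 to 98150367, was the receptor with the highest level in every library. It was at 7.84 and 9.18 FPKM in WT and at 5.96 and 9.3 FPKM in TG, so the genotypes overlapped and the TG libraries were further apart than the WT libraries. The log2 fold change was -0.18, with a 95% confidence interval from -0.73 to 0.38 and an adjusted p of 0.758 from limma. Without TG 1 it was 0.13. *Notch4*, known from endothelium, lies on Chr 17 from 34564286 to 34588543. It had 0 and 8 reads in WT and 4 and 8 reads in TG, and was below the filter of the test. The 0 of WT 1 is compatible with up to 3 reads (0.0491 FPKM), so a difference in *Notch4* was not detectable at this depth.

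**Figure D2:**
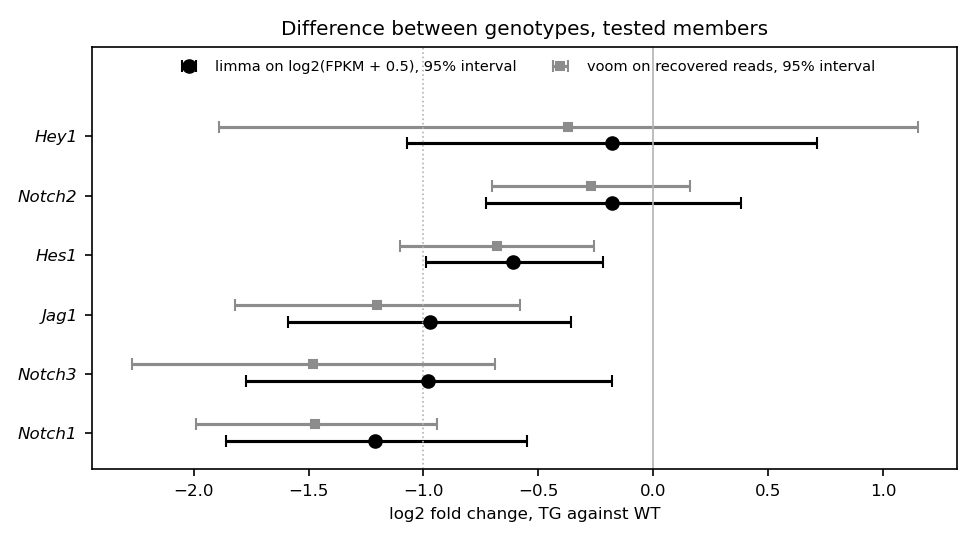
Log2 fold change between TG and WT on the x axis for the 6 tested genes. Black circles are limma on log2(FPKM + 0.5) and grey squares voom on the recovered reads, each with its 95% confidence interval, and the dotted line marks a log2 fold change of -1. *Notch1*, *Notch3*, *Jag1* and *Hes1* have intervals below 0 with both methods, from -1.86 to -0.55 for *Notch1* by limma, and those of *Notch2* and *Hey1* include 0. The intervals are not adjusted for the number of genes.

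Since FPKM is per length, the receptors were also compared within each library as shares of their summed FPKM. The sum was 15.6 and 16.6 FPKM in WT against 8.26 and 13.1 FPKM in TG. *Notch1* made up 37.6% and 33.9% of it in WT and 19.9% and 22.4% in TG. The ratio of *Notch1* to *Notch2* was accordingly 0.75 and 0.613 in WT and 0.276 and 0.315 in TG, and the genotypes did not overlap. *Notch2* took 50.2% and 55.3% in WT and 72.2% and 71.1% in TG, a difference of 18.9 percentage points. *Notch3* went from 12.1% and 10.2% to 7.32% and 5.6%. *Notch4* stayed below 1% in every library. An exact permutation test of 2 libraries against 2 gave p = 0.333 for each receptor (two-sided), which is the smallest p this design allows. The shares are bound to sum to 100%, so they are not independent of each other or of the fold changes above.

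**Figure D3:**
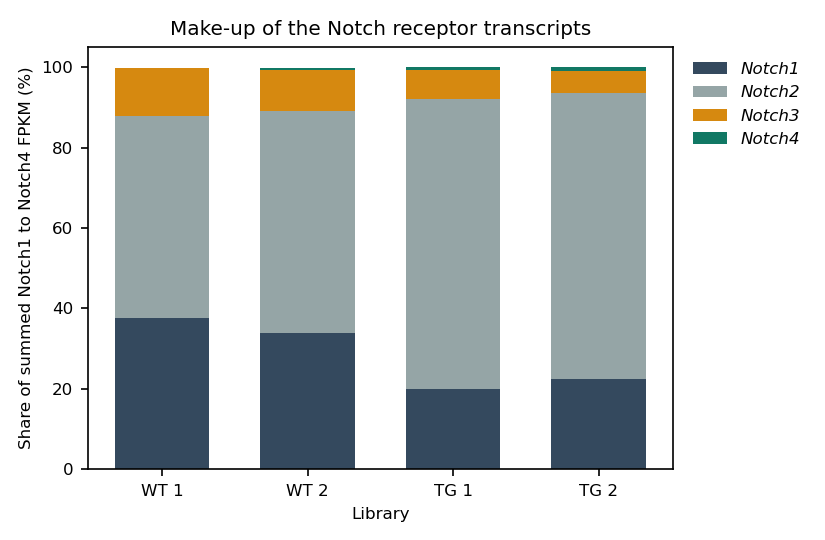
Share of each receptor in the summed FPKM of *Notch1* to *Notch4*, in percent, as 1 stacked bar for each library. *Notch2* takes between 50.2% and 55.3% in the WT bars and between 71.1% and 72.2% in the TG bars, and *Notch1* is the next in each bar.

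Of the ligands, *Jag1* was the only member with more than 28 reads in any library. It lies on Chr 2 from 137081451 to 137116520, 111 Mb from *Notch1*. Its values were 4.53 and 3.86 FPKM in WT against 1.79 and 1.98 FPKM in TG, from 229, 302, 114 and 117 reads. The genotypes did not overlap and the spread within each was small beside the gap between them, with means of 4.19 ± 0.472 FPKM (SD, n = 2) for WT against 1.88 ± 0.134 FPKM (SD, n = 2) for TG. The mean was 55.1% lower in TG. The log2 fold change was -0.97 ± 0.28 (SE, adjusted p = 0.0803 from limma) and did not pass the test. With voom it was -1.20, with an adjusted p of 0.0109. *Jag1* is known from mural cells as well. The summed smooth muscle and pericyte markers, at 10054 and 10260 FPKM in WT and at 4739 and 5396 FPKM in TG, were lower along with it. Most of that sum was *Acta2*, *Tagln*, *Cnn1* and *Myl9*, while *Smtn*, *Des* and *Myh11* overlapped between the genotypes. The summed fibroblast markers were lower as well, at 4910 and 4624 FPKM in WT and at 3944 and 4223 FPKM in TG. The part of either group of markers in the result was not tested.

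*Jag2*, on Chr 12 from 112907803 to 112929812, had 5 and 7 reads in WT and 28 and 7 reads in TG. Its level was 0.135 and 0.122 FPKM in WT against 0.601 and 0.162 FPKM in TG, so TG 1 alone was high. *Dll1*, the Delta ligand on Chr 17 from 15367354 to 15376932, had 7 reads in WT 2 and 0 elsewhere. Those 0 counts are compatible with 3 reads each, at most 0.0967 FPKM. Both genes were below the filter and were not tested. The summed ligand level was 4.66 and 4.13 FPKM in WT against 2.39 and 2.14 FPKM in TG, most of it *Jag1*.

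The promoters of 3 genes with lower values in both TG libraries are shown, so that their letters can be set beside the motifs of the pathway's own DNA-binding proteins. RefSeq windows of the 250 bases before an annotated start (GRCm38.p6) were matched for 7 members, in 8 windows. These are the receptors and ligands. No window was available for the target genes *Hes1*, *Hey1* and *Heyl*, so their promoters were not searched. Such a start can lie inside the outer bounds given for a gene, as it does for *Notch3*, *Notch4*, *Jag2* and 1 of the 2 windows of *Dll1*. Both strands were searched for GTGGGAA, the site of RBPJ, for its core TGGGAA, which lies inside it, and for CACNAG, the N-box bound by HES proteins. The RBPJ site and its core were in 0 of the 8 receptor and ligand windows, where 5.42% and 21.6% of all 32851 windows hold them. The N-box was in 3 of 8, those of *Notch1*, *Notch2* and *Notch3*, where 36.7% of all windows hold it. In the windows of *Notch1* (chr2:26503823-26504072), *Notch3* (chr17:32166891-32167140) and *Jag1* (chr2:137116521-137116770), which all lie on the minus strand and are written 5′ to 3′ along the gene, capitals mark the N-box on either strand.
Notch1: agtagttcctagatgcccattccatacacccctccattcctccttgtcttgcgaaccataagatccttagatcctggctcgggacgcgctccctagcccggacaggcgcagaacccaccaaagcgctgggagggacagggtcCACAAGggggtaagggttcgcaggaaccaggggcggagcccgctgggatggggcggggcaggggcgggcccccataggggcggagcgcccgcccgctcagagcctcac
Notch3: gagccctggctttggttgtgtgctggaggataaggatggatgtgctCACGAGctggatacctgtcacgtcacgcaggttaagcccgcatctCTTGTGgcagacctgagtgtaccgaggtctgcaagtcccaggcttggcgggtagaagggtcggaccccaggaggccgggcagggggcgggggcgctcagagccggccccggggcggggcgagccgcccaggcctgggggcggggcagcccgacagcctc
Jag1: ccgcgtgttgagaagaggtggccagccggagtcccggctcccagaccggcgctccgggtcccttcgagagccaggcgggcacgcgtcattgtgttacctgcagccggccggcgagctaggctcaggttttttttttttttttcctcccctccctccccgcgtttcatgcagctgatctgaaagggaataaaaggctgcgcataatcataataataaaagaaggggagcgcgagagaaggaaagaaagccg
The N-box begins 108 bases before the annotated start in the window of *Notch1*, and 204 and 159 bases before that in the window of *Notch3*. The window of *Jag1* holds none, and its GC content is 57.2% against 66% and 68.8% in the others. A match is a description of the letters and not of a bound site.

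Among the target genes, *Hes1* lies on Chr 16 from 30065357 to 30067796 and encodes a repressor that many cell types use to read out Notch activity. It was at 49.3 and 52.4 FPKM in WT and at 34 and 32.4 FPKM in TG, from 607, 998, 528 and 467 reads. The genotypes did not overlap, and the pairs of libraries were close, with means of 50.8 ± 2.2 FPKM (SD, n = 2) for WT against 33.2 ± 1.12 FPKM (SD, n = 2) for TG. The mean was 34.6% lower in TG. The log2 fold change was -0.61 ± 0.17 (SE, adjusted p = 0.0844 from limma) and lay within 1 in size. With voom it was -0.68, with an adjusted p of 0.0382.

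*Hey1*, on Chr 3 from 8663359 to 8667038, encodes a related repressor. It had 1.08 and 0.93 FPKM in WT against 0.571 and 1.14 FPKM in TG, from 14 to 28 reads. TG 1 was the lowest and TG 2 the highest of the 4 libraries, so the genotypes overlapped. The log2 fold change was -0.18, with a 95% confidence interval from -1.07 to 0.71 and an adjusted p of 0.854 from limma, and without TG 1 it was 0.13. *Heyl*, the mural cell relative on Chr 4 from 123233556 to 123249870, had 3 and 6 reads in WT and 0 and 0 reads in TG. Only the ratio of these counts follows from the values, and their size was set by transcript length. In FPKM these are 0.0723 and 0.0935 in WT, while a count of 0 allows up to 0.0574 and 0.0619 FPKM in TG 1 and TG 2. It was not tested, and 1 WT library lies at the count that a 0 allows. The summed smooth muscle and pericyte markers were lower in both TG libraries here too, though *Smtn*, *Des* and *Myh11* overlapped between the genotypes. The summed fibroblast markers were also lower in both. The part of either group of markers was not tested.

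Genes around the members were looked at because the study asked where on a chromosome transcription was lower. Within 500 kb of *Notch1*, the median log2 fold change of 23 tested genes was 0.05, with values from -0.73 to 1.11, and 0 were called by limma. The 9 around *Notch3* had a median of -0.13 and the 2 around *Jag1* of 0.13, again with 0 called. Around *Notch2* and *Hey1*, 6 and 3 tested genes had medians of 0.03 and 0.45, also with 0 called. The 5 around *Hes1* had a median of 0.06, with values from -1.84 to 0.20. Of these, *Lrrc15*, named after its value was seen, was called down-regulated, where limma called 0.469% of all tested genes. This transmembrane protein gene of activated fibroblasts was at 31.8 and 32.7 FPKM in WT and at 7.9 and 9.44 FPKM in TG (log2 fold change -1.84, adjusted p = 8.34e-04 from limma). The 6 tested members lie on Chr 2, Chr 3, Chr 16 and Chr 17.

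Other genes of the pathway were taken from a list of 57 by role, of which 46 were tested and 8, among them the ligands *Dll3* and *Dll4* and the target *Hes5*, were listed at 0 in every library. Limma called 0 of the 46 down-regulated and 1 up-regulated, against the 0.469% and 0.607% of all tested genes. At an unadjusted p under 0.05 there were 7 with lower and 5 with higher values in TG, against 6.88% and 12.7% of all tested genes. Voom called 1 down-regulated and 2 up-regulated, against 1.29% and 1.08%. In both directions 13 genes did not overlap between the genotypes, where 20.3% of all tested genes were lower and 30.2% higher. The list had 23 log2 fold changes below 0 and 23 above.

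The gene called was *Id1*, an inhibitor of basic helix-loop-helix factors that is best known as a BMP target. It rose from 12.3 and 12.5 FPKM to 35.8 and 35.6 FPKM (log2 fold change 1.49 ± 0.18 SE, adjusted p = 0.00174 from limma), higher in 2 of 2 TG libraries. It was no longer called with all genes above 0 tested, without the variance trend, with the replicate number as a block, or without WT 1 or WT 2. *Dlk1*, a non-canonical ligand and imprinted gene, was at 0.453 and 0.967 FPKM in WT and at 6.15 and 3.04 FPKM in TG (log2 fold change 2.04 ± 0.39 SE, adjusted p = 0.0172 from limma). Voom called both genes.

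**Figure D4:**
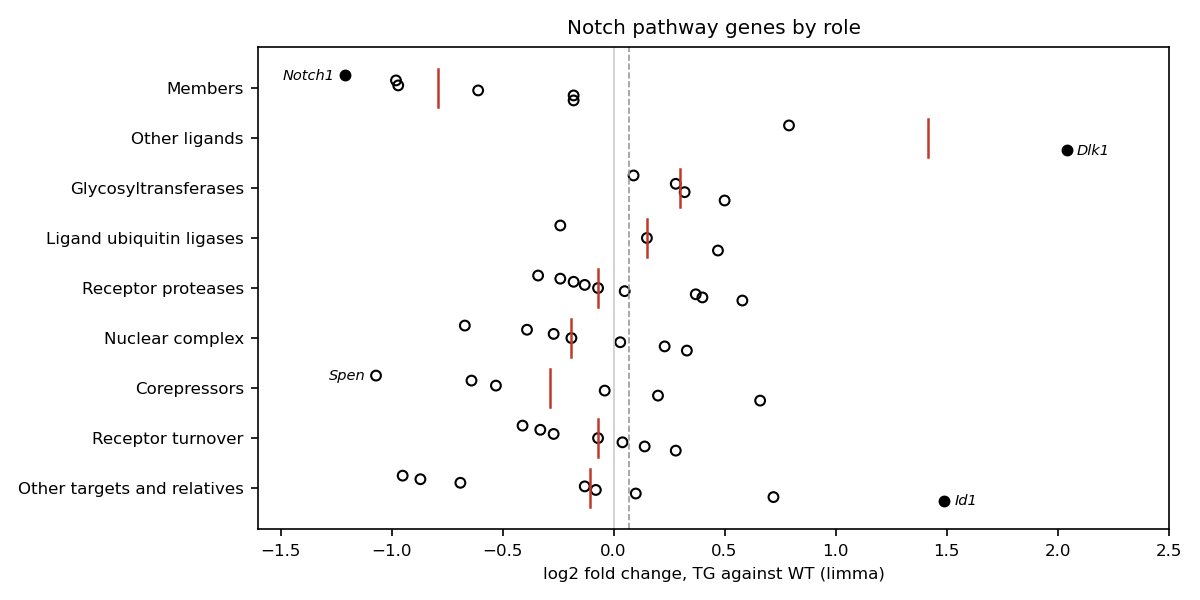
Log2 fold change between TG and WT on the x axis for the 6 tested members and the 46 other tested genes of the pathway, by role. Filled circles have an adjusted p under 0.05 by limma (*Notch1*, *Dlk1* and *Id1*), open circles do not, red lines are the medians of each role, and the dashed line is the median of all tested genes at 0.0711. The members lie between -1.21 and -0.18, and most other roles lie on both sides of 0.

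In the groups that process ligands and receptors, limma called 0 genes. Of the 9 tested receptor proteases, *Psenen*, a subunit of gamma-secretase, had the largest log2 fold change at 0.58 (adjusted p = 0.376 from limma). All 4 tested glycosyltransferases had log2 fold changes above 0, where the median of all tested genes was 0.0711. The largest was 0.50 for *Rfng*, a Fringe enzyme that modifies the receptors (adjusted p = 0.312 from limma). *Lfng* was at 21.5 FPKM in WT against 26 FPKM in TG, and its libraries and those of *Poglut1* overlapped between the genotypes. For the ligand ubiquitin ligases the log2 fold changes lay between -0.24 for *Mib2* and 0.47 for *Neurl1a*. In the receptor turnover group *Numbl* had the largest at -0.41 (adjusted p = 0.394) and *Dtx3* the highest level, 21.2 FPKM in WT against 20.3 FPKM in TG.

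In the nucleus, *Snw1*, a cofactor of the Notch complex, was at 102 FPKM in WT against 120 FPKM in TG, and *Ep300*, the acetyltransferase that Mastermind recruits, at 15.7 and 9.69 FPKM (log2 fold change -0.67, adjusted p = 0.144 from limma). Among the corepressors *Ctbp1* had the highest level, with 103 FPKM in WT against 117 FPKM in TG. *Spen*, which acts with RBPJ in repression and is also a partner of *Xist* RNA, was at 10.4 and 12.6 FPKM in WT and at 3.8 and 7.04 FPKM in TG. Both TG libraries were below both WT libraries, and the log2 fold change was -1.07 ± 0.28 (SE, adjusted p = 0.0632 from limma), which did not pass the test. Voom called it, with a log2 fold change of -1.22 and an adjusted p of 4.13e-04. *Myc* was the highest of the other targets, at 103 FPKM in WT against 94.3 FPKM in TG.

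The tested genes whose 4 values were most like those of *Hes1*, by the distance between log2(FPKM + 0.5) values centred on the mean of each gene, were *Adamtsl3*, *Tmem44* and *Prkce*, at distances of 0.0119, 0.0217 and 0.0379. In all, 346 tested genes lay within 0.25 of *Hes1*. For *Notch1* they were *Mycl*, *Ttc28* and *Antxr1*, at 0.0619, 0.0989 and 0.13, and 4 genes lay within 0.25. *Mycl*, a relative of *Myc*, was at 2.86 and 2.68 FPKM in WT and at 0.62 and 1.21 FPKM in TG. Likeness over 4 libraries is a description only.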

How the data were processed

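Polyadenylated RNA of 2 WT and 2 TG libraries was sequenced in paired-end mode from strand-specific cDNA. The authors used Rsubread for alignment (mm10) and for counts per gene, and turned those counts into FPKM in R. Versions, the annotation and the strand setting are not given in the sources used here. The deposited values are FPKM, 1 column per library.

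For TG against WT, log2(FPKM + 0.5) values of the 11524 genes whose mean FPKM reached 0.5 were given to limma 3.58.1 (R 4.3.3), moderated with its trend option, and p-values were adjusted over all of them after Benjamini and Hochberg. The thresholds are those of the study, which tested with DESeq, so its numbers of called genes are not comparable with those given here. Whole reads were recovered for all 15530 genes above 0 (within 1e-06 reads, plus 6e-07 of the count where a value was written with fewer digits), with effective lengths most often 149 bases below the exonic length. A common factor was set from transcript lengths for 761 genes, *Heyl* among them. They sum to between 98.17% and 98.29% of the library totals, and voom was run on them with median-ratio size factors. Limits from reads cover counting error only. Both tests were checked on simulated reads in which 200 genes had a log2 fold change of 2 in size. Limma recovered 199 of them with 2 false calls, and voom 198 with 1. The changed genes had a mean of at least 2 FPKM, which *Notch3* and *Hey1* did not reach, and every gene was given the same set spread. Changes as small as those of the members were not simulated. The check therefore gives neither the power to detect them nor the rate of false calls in these libraries. Positions are from RefSeq on GRCm38.p6, the assembly of mm10. Shares were compared by an exact permutation test (scipy 1.17.1).

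The members and lists were chosen with earlier results of these data known. Named were all members, the listed pathway genes that were called or had an adjusted p under 0.05, the highest and the most changed gene of each role, the genes most like *Hes1* and *Notch1*, *Xist* and the markers. A result this rule would name is not reported here. Alternatives were a pseudocount of 1 or 0.1, other filters, no trend, upper-quartile or quantile scaling, the replicate block, each library left out, voom and relaxed thresholds. A planned comparison of protein sequences was not made.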

Additional observations from a re-analysis of the deposited data

How the results depend on the processing

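Limma called 54 of all tested genes down-regulated and 70 up-regulated, in that order. With all genes above 0 tested the counts were 1 and 0, without the variance trend 6 and 3, with voom 149 and 125, and at an adjusted p under 0.05 121 and 229. Leaving out each library in turn gave 1 to 47 down-regulated and 0 to 66 up-regulated. The lowest counts came without WT 1 (1 and 0) and without WT 2 (2 and 7). The split turned to 53 and 47 with upper-quartile scaling and to 55 and 47 with quantile normalization.

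Of the 6 tested members, 1 (*Notch1*) was called with voom, at a log2 fold change of -1.47, and 1 at an adjusted p under 0.05. Counts of 0 were kept under the other 13 alternatives. With each library left out in turn the log2 fold change lay between -0.48 and 0.13 for *Notch2* and between -0.49 and 0.13 for *Hey1*, and both were above 0 without TG 1 (adjusted p = 0.903 and 0.933 from limma). *Notch3*, *Jag1* and *Hes1* stayed below 0 under all 13 alternatives, between -1.48 and -0.56. As their libraries did not overlap between the genotypes, leaving out a library could not turn that sign. In the list of other pathway genes, voom called 1 down-regulated. The count of 1 up-regulated was 0 with all genes above 0, without the trend and without WT 1 or WT 2, and 2 without TG 2, with voom and at an adjusted p under 0.05, so leaving out a library gave 0 to 2. The difference in receptor shares kept its direction under 5 alternatives. Leaving out a library could not reverse it, because the shares of the genotypes did not overlap for any receptor. The cause was not tested in any case.

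The labels do not say that a replicate number marks anything shared, and same-numbered libraries did not deviate together (correlation -0.0276 across genes). With the replicate number as a block, 8 genes were called down-regulated and 12 up-regulated, 0 of the 6 members, and 0 of the pathway list in either direction. With 2 libraries per genotype and at most 28 reads for *Notch4*, *Jag2*, *Dll1*, *Hey1* and *Heyl*, differences in these genes are the least well measured.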
